A study of Mus musculus with 6 samples.

Results

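The 10 genes examined here encode products of the mature lung epithelium: the surfactant proteins *Sftpc*, *Sftpb*, *Sftpd* and *Sftpa1*, the lamellar body and aspartic protease genes *Abca3*, *Lamp3* and *Napsa*, the alveolar type I gene *Hopx*, and the airway secretory genes *Scgb3a2* and *Scgb1a1*. They were chosen by name, and all 10 were found by symbol among the 23420 genes listed for whole mouse lungs at E11.5 (days *post coitum*). Mutant lungs were *Rptor f/f; Shh Cre/+* (written with Raptor, the protein of *Rptor*, in the sample labels). The labels do not give the control genotype. The paper names *Rptor f/+; Shh Cre/+* littermates as controls at a later stage, and a supplementary figure labels the controls of this stage *Shh Cre/+*. Each of the 3 control and 3 mutant libraries was made from a pool of 3 or 4 lungs of one genotype, and the pools are numbered control 1 to 3 and mutant 1 to 3. *Rptor* encodes a defining subunit of mTOR complex 1 (mTORC1), a kinase complex that couples growth to nutrient and energy supply. *Shh Cre* is a Cre allele at the *Shh* locus and acts in the lung epithelium but not in the mesenchyme, blood vessels or other cells of a whole lung. Both groups carried this *Shh* allele, so that the controls were not wild type. Whether the controls also carried a floxed *Rptor* allele is not settled by these sources. The comparison asks how these genes stood in lungs in which *Shh Cre* deletes *Rptor* in the epithelium, at a stage when branching has only begun. The paper shows reduced mTORC1 activity in the epithelium at later stages, and the extent of its loss at E11.5 was not measured here.

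Pulmonary surfactant is a film of lipids and proteins that lowers surface tension in the air spaces. Alveolar type II cells make it, store it in lamellar bodies and secrete it, while alveolar type I cells form the thin surface for gas exchange and club cells secrete secretoglobins into the conducting airways. All of these cells descend from epithelial progenitors that carry the transcription factor NKX2-1, and distal SOX9+ progenitors transcribe some surfactant genes long before type II cells exist.

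The normalized counts summed to between 20705058 and 20865998 per library, which the scaling itself makes alike. A normalized count is a read number scaled by the size factor of its library, and 1 read was worth between 0.98 and 1.03 here. A gene listed at 0 is limited to a level of up to 3 of the 20197642 to 21276090 reads in each of the 5 libraries whose reads were recovered. Such limits cover counting error only. *Rptor* itself was at 2199 ± 77.0 (SD, n = 3) in control and 2103 ± 69.1 (SD, n = 3) in mutant pools, with overlapping values, and its reads include those of cells outside the epithelium. *Xist*, which is transcribed in female cells, was at 4599, 309 and 12989 for controls 1 to 3 and at 41.9, 466 and 161 for mutants 1 to 3, and thus varied widely among the controls. Its mean was 5966 in control and 223 in mutant pools, with overlapping values. The sex of the pooled embryos may therefore differ between the groups together with genotype.

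Of the 10 genes, 6 reached a normalized count of 10 in some or all pools at E11.5 and 4 were near zero, which is used here for a normalized count under 10 in all 6 pools. The near-zero genes were *Lamp3*, *Scgb3a2*, *Scgb1a1* and *Sftpd*. Ordered by mean normalized count per kilobase of annotated exon, *Sftpc* was first with 226.5, followed by *Abca3* (77.2), *Sftpb* (68.4), *Hopx* (25.0), *Sftpa1* (16.2), *Napsa* (4.31), *Lamp3* (1.34), *Scgb3a2* (0.939), *Scgb1a1* (0.344) and *Sftpd* (0.0712). The pools of *Sftpc*, at 133.6 to 287 per kilobase, lay above those of every other gene of the set. *Abca3* (73.1 to 84.7) and *Sftpb* (53.0 to 73.7) overlapped, as did *Hopx* (16.8 to 35.4) and *Sftpa1* (11.8 to 19.2), and so did the last 4 genes, whereas *Napsa* (2.99 to 5.90) was separate from its neighbours. On this scale, 78.0% of the 21715 genes with a length were below *Sftpc*, and 19.3% were below *Sftpd*. The exon lengths join all annotated isoforms of a gene, which lowers the value of genes with many isoforms.

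**Figure D1:**
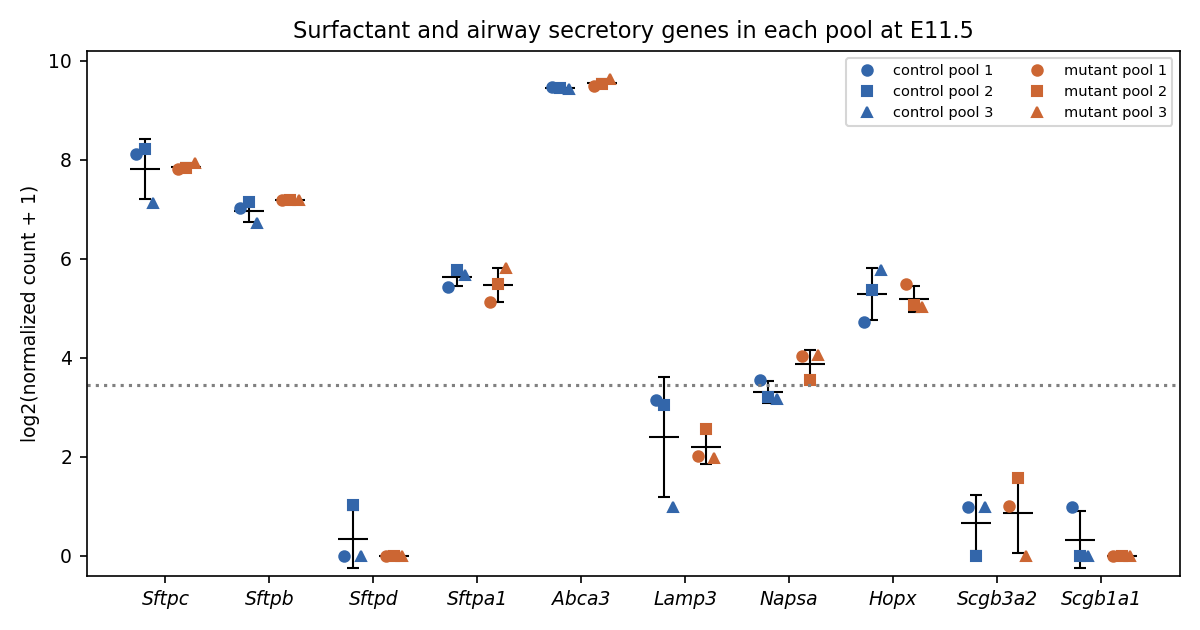
Level of each of the 10 genes in every pool, as log2(normalized count + 1), with control pools in blue and mutant pools in orange, and a bar and whiskers for the mean and SD of the 3 pools. The dotted line marks a normalized count of 10, and *Sftpd*, *Lamp3*, *Scgb3a2* and *Scgb1a1* stay below it in all 6 pools, while *Sftpc* drops in control pool 3.

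*Sftpc* encodes surfactant protein C, a small hydrophobic peptide that inserts in the surfactant film, and is the usual label of distal epithelium. In the GRCm38 build its position is chromosome 14, 70520949 to 70524081. Its normalized counts were 277, 296 and 138 for controls 1 to 3 and 224, 226 and 244 for mutants 1 to 3. The mutant pools lay close together and inside the range of the controls, since control pool 3 was the lowest of all 6 pools and the other controls were the highest. The means were 237 ± 86.3 (SD, n = 3) and 231 ± 11.4 (SD, n = 3), for control and mutant. On the log2(normalized count + 1) scale the difference, mutant minus control, was 0.04 with a 95% interval from -0.49 to 0.57 (limma adjusted p = 0.959). The mean of the counts was slightly lower in the mutant and the mean of the logs slightly higher, and neither difference exceeded the spread. Counting error alone would give a control SD of 15.4, so most of the control spread was between pools. Without control pool 3 the log2 difference was -0.31 (limma adjusted p = 0.114), which turns the direction without passing the threshold of 0.05.

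*Sftpb* encodes surfactant protein B, which is needed for lamellar bodies to form and for breathing at birth. It lies on chromosome 6 from 72304610 to 72314371. Its normalized counts were 129, 142 and 104 for controls 1 to 3 and 144, 145 and 144 in the mutant pools. The lowest mutant value was above the highest control value, that of control pool 2, by a small step. The log2 difference was 0.22 with a 95% interval from -0.08 to 0.52 (limma adjusted p = 0.506). The mutant SD of 0.549 (n = 3) was far smaller than the counting SD of 12.0 at this level, so this closeness is not a measure of precision. Without control pool 3 the log2 difference was 0.10 (limma adjusted p = 0.748), and with log2 *Xist* as a covariate it was 0.0084 (limma adjusted p = 0.992).

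*Sftpa1* encodes surfactant protein A, a collectin of host defence, and was read at a lower level. Its normalized counts were 42.2, 53.7 and 49.7 for controls 1 to 3 and 33.7, 44.1 and 55.0 for mutants 1 to 3. The groups overlapped, with the highest and the lowest pool both mutant. The log2 difference was -0.15, with a 95% interval from -0.64 to 0.34 (limma adjusted p = 0.813). *Sftpd*, which encodes the related collectin surfactant protein D, lies near *Sftpa1* on chromosome 14 (41172214 to 41185149 against 41131782 to 41136452). It had a normalized count of 1.03 in control pool 2, which is 1 read, and was listed at 0 in the other 5 pools. Of these neighbouring collectin genes, *Sftpa1* was thus read in every pool and *Sftpd* was at the limit of detection.

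Promoters of the RefSeq table (GRCm38.p6) were matched by symbol for 5 of the 10 genes: *Sftpb*, *Sftpa1*, *Abca3*, *Lamp3* and *Hopx*. Those of *Sftpb* and *Sftpa1*, both read in every pool, and of the near-zero *Lamp3* are shown as the 250 bases before the RefSeq start of the gene, 5′ to 3′ on the strand of the gene. They are chr6:72304360-72304609 on the plus strand, chr14:41131538-41131787 on the plus strand and chr16:19706366-19706615 on the minus strand. Capitals mark CTCAAG and CAAGTG, which share the CAAG core bound by NKX2 proteins, TGTTTAC and TGTTTGC, which are forkhead (FOXA) motifs, and TATAAA, all searched on both strands.
Sftpb: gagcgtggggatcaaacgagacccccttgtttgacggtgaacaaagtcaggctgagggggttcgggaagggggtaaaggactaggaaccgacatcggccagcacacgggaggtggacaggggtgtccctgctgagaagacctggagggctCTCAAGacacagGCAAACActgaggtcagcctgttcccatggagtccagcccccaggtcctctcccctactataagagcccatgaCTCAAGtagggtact
Sftpa1: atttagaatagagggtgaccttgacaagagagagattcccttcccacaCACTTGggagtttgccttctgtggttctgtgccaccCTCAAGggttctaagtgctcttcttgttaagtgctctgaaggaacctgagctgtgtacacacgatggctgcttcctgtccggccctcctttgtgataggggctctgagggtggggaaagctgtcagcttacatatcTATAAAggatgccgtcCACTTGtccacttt
Lamp3: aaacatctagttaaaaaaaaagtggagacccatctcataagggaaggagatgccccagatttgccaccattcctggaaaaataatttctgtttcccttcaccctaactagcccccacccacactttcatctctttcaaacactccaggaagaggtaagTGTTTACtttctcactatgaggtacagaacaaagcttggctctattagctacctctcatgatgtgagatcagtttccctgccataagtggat
The *Sftpb* window held CTCAAG at 2 places, 100 and 15 bases before the start, and TGTTTGC on the other strand 88 bases before it. The *Sftpa1* window held CTCAAG once, CAAGTG on the other strand at 2 places, 202 and 14 bases before the start, and TATAAA 30 bases before it. Either NKX2 motif was found in 22.6% of 32851 windows of this length in the table, either FOXA motif in 7.29% and TATAAA in 12.4%. The *Lamp3* window held TGTTTAC 92 bases before the start and neither NKX2 motif. The *Abca3* window, with 67.6% G and C bases, held none of the 5 motifs, and of 2 *Hopx* starts one had CTCAAG on the other strand. A match of letters is a description of the sequence and not a binding site.

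*Abca3* encodes the transporter that loads phospholipid into lamellar bodies. It lies on chromosome 17 from 24351950 to 24410201. Its normalized counts were 711, 695 and 685 for controls 1 to 3 and 720, 735 and 794 for mutants 1 to 3. The groups did not overlap, and the lowest mutant and highest control pools were close. The means were 697 ± 13.2 and 750 ± 39.0 (SD, n = 3 each), for control and mutant. The log2 difference was 0.10, with the narrowest interval of the set, from -0.03 to 0.24 (limma adjusted p = 0.478). An antisense gene, *D330041H03Rik*, shares 914 exon bases with *Abca3*, and the sources used here do not say whether strand was used in counting. It was at most at 53.0 in any pool, against 685 or more for *Abca3*.

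*Napsa* encodes napsin A, an aspartic protease that processes pro-surfactant protein B, and lies on chromosome 7 from 44572380 to 44586862. Its normalized counts were 10.8, 8.26 and 7.95 for controls 1 to 3 and 15.3, 10.8 and 15.7 for mutants 1 to 3. Mutant pool 2 and control pool 1 were at the same level, and the other mutant pools were higher. The log2 difference was 0.57, the largest of the set, with a 95% interval from -0.12 to 1.27 (limma adjusted p = 0.454). The difference of the means, 9.01 ± 1.57 in control and 13.9 ± 2.74 in mutant pools (SD, n = 3 each), was larger than either SD and did not pass the test. *Lamp3*, which encodes a lysosome-associated protein of lamellar bodies and mature dendritic cells (chromosome 16, 19653378 to 19706375), was near zero. It was at 7.86, 7.23 and 0.994 for controls 1 to 3 and at 3.07, 4.90 and 2.94 for mutants 1 to 3. Control pool 3 was again the lowest, at a single step of the scale, and the log2 difference of -0.21 had a 95% interval from -1.54 to 1.13 (limma adjusted p = 0.912). *Napsa* overlaps the antisense gene *Gm15396*, which was not analysed here.

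*Hopx* encodes a small homeodomain protein without DNA binding, which marks alveolar type I cells later in lung development and is also transcribed in the embryonic heart. It lies on chromosome 5 from 77086988 to 77115121, with the antisense gene *Hopxos* on the other strand. Its normalized counts were 25.5, 40.3 and 53.7 for controls 1 to 3 and 43.9, 32.4 and 31.4 for mutants 1 to 3. The highest and the lowest pool were both controls, and here control pool 3 was the highest. The log2 difference was -0.10 (95% interval from -0.73 to 0.53, limma adjusted p = 0.909) and was 0.14 without control pool 3 (limma adjusted p = 0.845). Heart muscle genes were present in the dissected lungs. The 20 genes of a heart muscle list summed to 2212 to 2405 in control and 1847 to 2064 in mutant pools, 5 of them near zero, and their part in the *Hopx* reads was not tested. Of 19 tested heart genes, 0 passed by limma, 5 were lower and 0 higher at an unadjusted p under 0.05, and 3 were lower by edgeR. The shares of all genes were 6.89% lower and 6.67% higher at that limma p, and 3.68% called by edgeR.

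*Scgb3a2*, on chromosome 18, and *Scgb1a1*, on chromosome 19 from 9083636 to 9087958, encode small secreted proteins of the airway epithelium, and *Scgb1a1* (CC10) is the standard marker of club cells. The normalized count of *Scgb3a2* was 0.982, 0 and 0.994 for controls 1 to 3 and 1.02, 1.96 and 0 for mutants 1 to 3, or 4 reads in the 5 libraries with recovered reads. *Scgb1a1* was at 0.982, which is 1 read, in control pool 1 and listed at 0 in the other 5 pools. No fold change is given for these genes or for *Sftpd*, because both groups were under 3 reads per library. Their state in the mutant relative to the control was not detectable at this depth.

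A test across all genes covered the 17168 that reached a normalized count of 1 in 3 or more pools, and 7 of the 10 genes were among them. *Sftpd*, *Scgb3a2* and *Scgb1a1* were not. With limma, 0 of the 7 had an adjusted p under 0.05, a threshold that 0.501% of all tested genes passed (0.186% higher and 0.315% lower in the mutant). An unadjusted limma p under 0.05 was seen for 0 of the 7 and for 13.6% of all genes. The edgeR test was run on the recovered reads of 5 libraries, which leave out control pool 3. It called 0 of the 6 genes tested, against 3.68% of all genes. An unadjusted edgeR p under 0.05 was seen for 1 of the 6, *Sftpc* (log2 difference -0.31, edgeR adjusted p = 0.102), and for 18.7% of all genes. The mean log2 value was higher in the mutant for 4 and lower for 3 of the 7 genes. Their median log2 difference was 0.04, and that of all tested genes was -0.0021. The groups did not overlap for *Sftpb* and *Abca3*, or 2 of the 7 genes, both higher in the mutant, and for 20.2% of all tested genes (9.76% higher and 10.5% lower). The intervals leave room for changes of either sign: for *Sftpc* from 0.714-fold to 1.48-fold, and for *Abca3* from 0.980-fold to 1.18-fold.

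**Figure D2:**
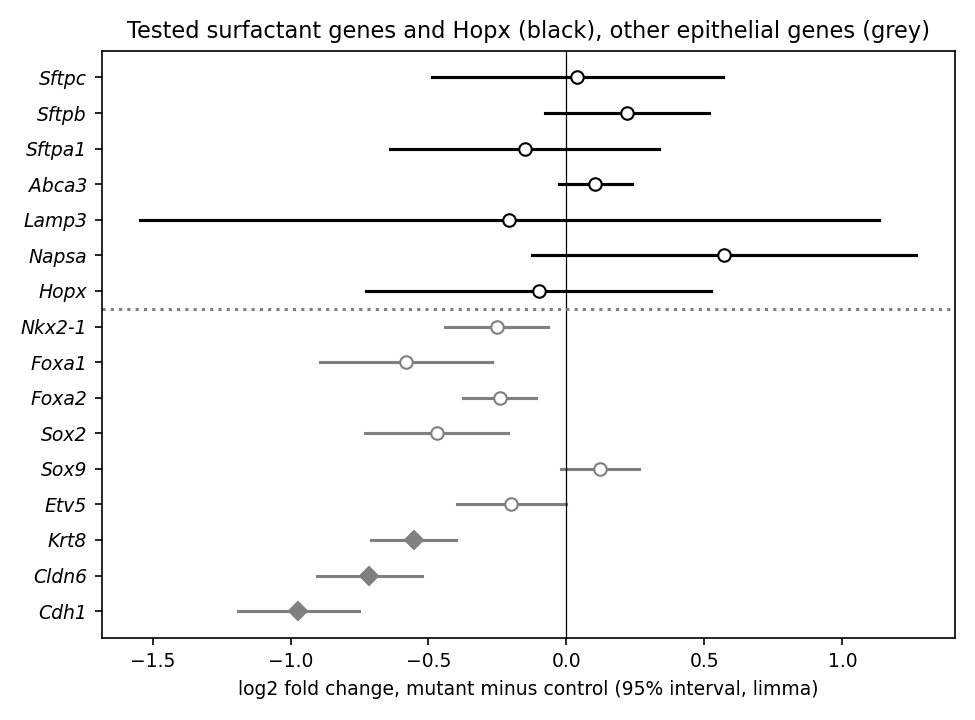
Log2 difference, mutant minus control, with its 95% limma interval, for the 7 tested genes of the set (black) and for selected other epithelial genes (grey). Filled diamonds have an adjusted p under 0.05 and open circles do not. The intervals of all 7 black genes and of *Sox9* include 0. Those of *Krt8*, *Cldn6*, *Cdh1*, *Nkx2-1*, *Foxa1*, *Foxa2*, *Sox2* and *Etv5* lie below it. Of these, *Krt8*, *Cldn6* and *Cdh1* pass the adjusted threshold and were picked as the genes of lowest p in the epithelial list. The regulators *Gata6* (0.09 to 0.30) and *Cebpa* (0.09 to 0.62), whose intervals lie above 0, are not shown.

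Control pool 3 stood apart from the other controls for some of these genes. Its log2 difference from the mean of control pools 1 and 2 was -1.05 for *Sftpc*, and 11 of the 11456 genes with a mean of 100 or more were lower. For *Sftpb* the difference was -0.37 and for *Abca3* -0.04, against a median of -0.01 and a 5th percentile of -0.29 over all these genes. Other epithelial genes were also low in this pool, such as *Cldn18*, which encodes a claudin of lung epithelium (-0.69), the pan-epithelial gene *Epcam* (-0.38, named after its values were seen) and *Nkx2-1* (-0.35). *Sox9*, the marker of distal progenitors, was higher (0.21). Control pool 3 also had the highest *Xist* of all pools, and the part of the sex of the embryos in its low *Sftpc* was not tested. With log2 *Xist* as a covariate the log2 difference of *Sftpc* was -0.46 (limma adjusted p = 0.605).

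**Figure D3:**
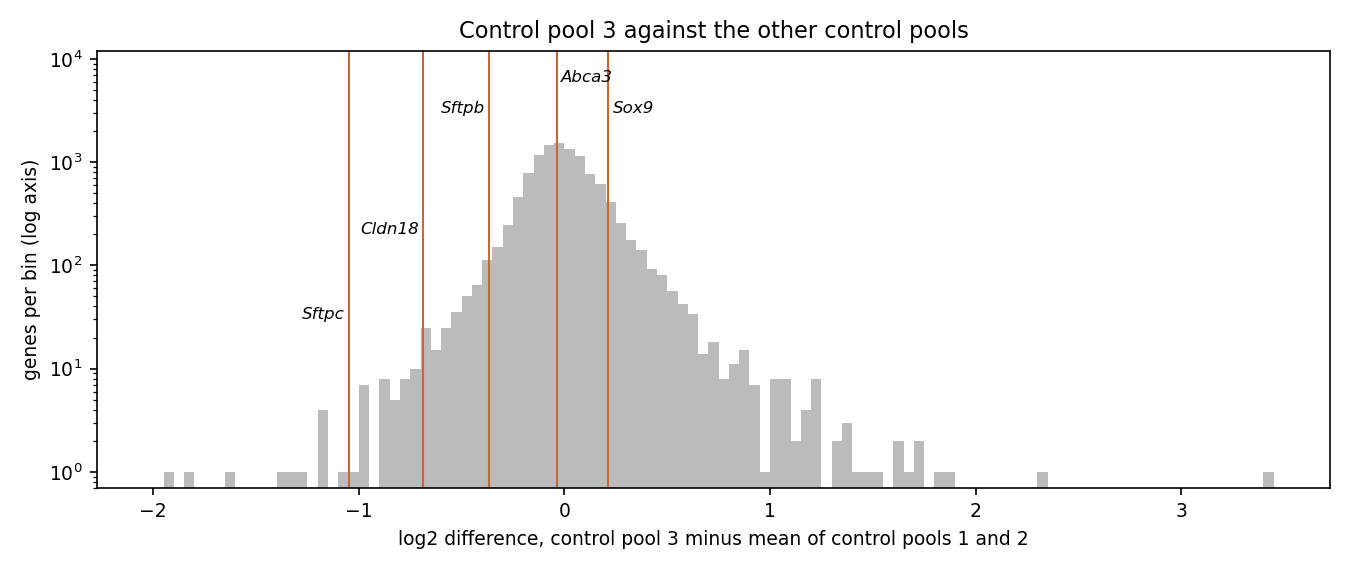
Number of genes (log axis) by the log2 difference of control pool 3 from the mean of control pools 1 and 2, over 11456 genes whose mean normalized count reached 100. Orange lines mark named genes, and *Sftpc* at -1.05 lies in the left tail of the distribution while *Abca3* lies at its centre.

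Whole lungs hold mesenchyme, vessels and epithelium, and in such samples fewer epithelial cells and less RNA per cell cannot be told apart. A list of 20 epithelial genes was written for this purpose with earlier results of these data known. Of these 20 genes, 19 had a lower mean log2 value in the mutant. By limma, 7 of these fell at an adjusted p under 0.05, with 0 higher, against 0.315% of all tested genes that were called lower. The median log2 difference of the 20 genes was -0.49. *Cdh1*, which encodes E-cadherin, fell from 1439 ± 131 to 736 ± 97.7 (SD, n = 3 each, limma adjusted p = 0.00728), the claudin gene *Cldn6* fell by 0.71 on the log2 scale (limma adjusted p = 0.0119), and the keratin gene *Krt8* fell by 0.55 (limma adjusted p = 0.0128). The number called in this list was 0 by limma without the variance trend, 0 without control pool 1 or without mutant pool 3, 1 without mutant pool 1, 2 without mutant pool 2, and 16 (15 lower and 1 higher) without control pool 3. The 95% interval of the log2 difference included this median of -0.49 for *Sftpc* (down to -0.49), *Sftpa1* (to -0.64), *Hopx* (to -0.73) and *Lamp3* (to -1.54), and did not for *Sftpb*, *Abca3* or *Napsa*. The median log2 difference of all tested genes was -0.0021. The share of all tested genes whose interval excludes -0.49 was not counted, so this split of the set has no background.

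Each of the 5 genes that reached a normalized count of 10 in all pools was then set against the mean log2 value of the 20 epithelial genes of the same pool. This reference depends on the genes chosen for the list. The difference for *Sftpb* was -1.91, -1.85 and -2.08 for controls 1 to 3 and -1.32, -1.06 and -1.34 for mutants 1 to 3, and the mutant pools were all higher. *Abca3* was at 0.55, 0.44 and 0.62 for controls 1 to 3 and at 0.99, 1.27 and 1.11 for mutants 1 to 3, again without overlap. *Sftpc* was at -0.81, -0.79 and -1.68 for controls 1 to 3 and at -0.69, -0.43 and -0.58 for mutants 1 to 3, where the step between the groups was small. Mutant minus control, the mean difference was 0.71 for *Sftpb*, 0.59 for *Abca3* and 0.52 for *Sftpc*. A two-sided exact permutation test gave p = 0.1 for each, the smallest that 3 pools against 3 allow, and 0.167 after adjustment over the 5 genes. *Sftpa1* (0.33, exact p = 0.3) and *Hopx* (0.38, exact p = 0.4) overlapped between the groups. These 3 of 5 genes are to be read against 82.0% of 13949 genes of 10 or more in all pools that shifted upwards without overlap in the same way, because the epithelial mean itself differed by -0.49. When the whole table was scaled to the epithelial genes, 4 of the 7 tested genes (*Sftpc*, *Sftpb*, *Abca3* and *Napsa*) passed the threshold as higher by limma, against 70.0% of all genes called higher and 70.5% called in all. Set against *Epcam* alone, 1 of the 5 genes had mutant pools that were all above the controls. The share of all genes that did so against *Epcam* was not counted, so this number has no background.

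**Figure D4:**
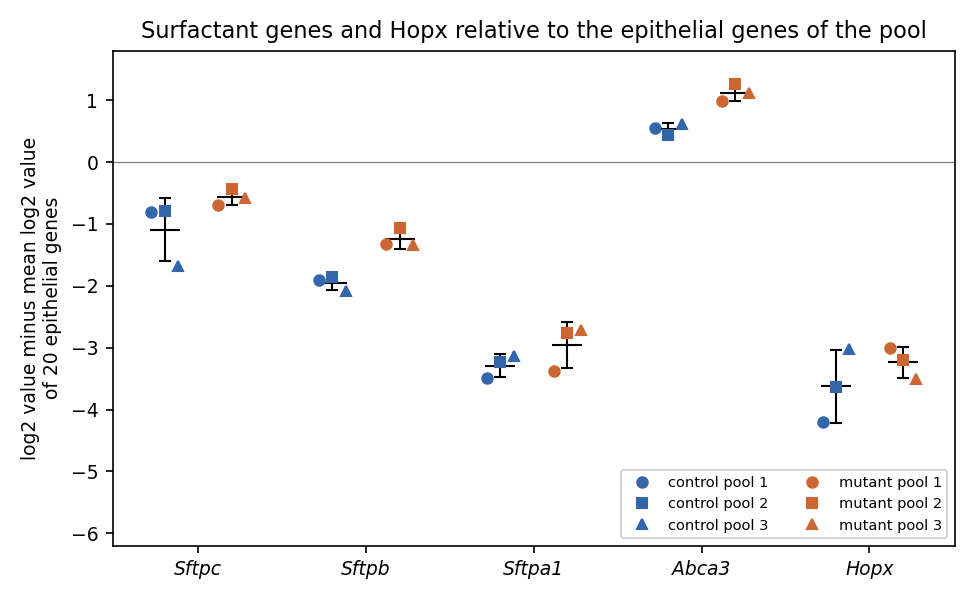
Log2 value of *Sftpc*, *Sftpb*, *Sftpa1*, *Abca3* and *Hopx* minus the mean log2 value of 20 epithelial genes of the same pool, with control pools in blue, mutant pools in orange, and the mean and SD of 3 pools. *Sftpb* and *Abca3* show a step between the groups and *Sftpc* a small one, with no overlap. The same upward shift without overlap was seen for 82.0% of 13949 genes of 10 or more in all pools. *Sftpa1* and *Hopx* overlap.

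Transcription factors that act on surfactant genes were looked at next. Of 28 listed regulators, 0 had an adjusted p under 0.05 by limma, while 8 were higher and 8 lower at an unadjusted p under 0.05, against 6.67% of all genes higher and 6.89% lower. With edgeR on 5 libraries, which called 3.68% of all genes, 3 were called higher and 4 lower, and limma without control pool 3 gave the same numbers. *Nkx2-1*, the main activator of surfactant and secretoglobin genes, was at 2553, 2686 and 2061 for controls 1 to 3 and at 1977, 2061 and 2050 for mutants 1 to 3. Control pool 3 lay with the mutant pools, and the log2 difference was -0.25 (95% interval from -0.44 to -0.07, limma adjusted p = 0.218, edgeR adjusted p = 0.00069 on 5 libraries). *Foxa1*, a forkhead factor of lung epithelium, had no overlap between groups, at 1388 ± 298 in control and 917 ± 105 in mutant pools (SD, n = 3 each, limma adjusted p = 0.118, edgeR adjusted p = 0.000945). Its relative *Foxa2* was at 865 ± 50.2 and 730 ± 13.4, also without overlap (limma adjusted p = 0.124, edgeR adjusted p = 0.015). *Gata6*, a zinc finger factor of the endoderm and mesoderm (log2 difference 0.20, limma adjusted p = 0.121), and *Cebpa*, a factor of type II cell maturation (0.36, limma adjusted p = 0.218), were above the controls in every mutant pool and did not pass the threshold.

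The factors of proximal and distal identity did not pass by limma with all 6 pools. *Sox2*, the proximal factor, had a log2 difference of -0.47 (limma adjusted p = 0.124) and *Sox9*, the distal one, of 0.12 (limma adjusted p = 0.431). *Sox2* was at 423 to 553 in control and 304 to 390 in mutant pools, without overlap. Its limma interval, from -0.73 to -0.21, lay below zero. The paper reports sharply reduced *Sox2* and unaltered *Sox9* in its RNA-Seq of this stage. By edgeR on 5 libraries, *Sox9* was higher (adjusted p = 0.0357) and *Sox2* did not pass (adjusted p = 0.0714). Those libraries leave out control pool 3, which had the highest *Sox2* of all pools. *Etv5*, a target of FGF signalling in distal tips, was at -0.20 (limma adjusted p = 0.366, edgeR adjusted p = 0.00879), and *Id2*, a marker of distal tips, was at 0.01 (limma adjusted p = 0.969). Control pool 3 was the lowest of all pools for *Etv5*, at 4522.

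Other genes of surfactant-producing cells were counted from a list of 23 further genes. Of 22 tested, 0 passed by limma or edgeR. At an unadjusted limma p under 0.05, 2 were higher and 2 lower, against 6.67% of all genes higher and 6.89% lower. The median log2 difference of the list was -0.01. The summed normalized count of the list was 21811 to 22956 in control and 21007 to 21424 in mutant pools. *Lpcat1*, which makes dipalmitoyl phosphatidylcholine for surfactant, was at 1168 ± 13.3 in control and 1098 ± 35.1 in mutant pools (SD, n = 3 each, limma adjusted p = 0.451). *Slc34a2*, the phosphate transporter of type II cells, was near zero, with 3.93, 0 and 0.994 for controls 1 to 3 and 2.04, 2.94 and 1.96 for mutants 1 to 3. The mucin gene *Muc1* had the lowest p of the list, with a log2 difference of -0.55 (limma adjusted p = 0.200).

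Alveolar type I genes beside *Hopx* were read at E11.5, and 0 of 19 were near zero. By limma 0 of the 19 passed, with 1 higher and 5 lower at an unadjusted p under 0.05, and by edgeR 3 were lower. The shares of all genes were 6.67% higher and 6.89% lower at that limma p, and 3.68% called by edgeR. *Pdpn*, which encodes podoplanin and is also made by mesothelium and lymphatic vessels, was at 461 ± 27.1 in control and 474 ± 24.0 in mutant pools (SD, n = 3 each). *Ager* was at 161 ± 7.20 and 185 ± 23.9, in the same order. The water channel gene *Aqp5* was low and uneven, at 29.5, 55.8 and 11.9 for controls 1 to 3 and at 29.6, 27.5 and 36.3 for mutants 1 to 3. *Cldn18* was at 483, 595 and 333 for controls 1 to 3 and at 362, 344 and 354 for mutants 1 to 3, and control pool 3 was the lowest for both genes, as for *Sftpc*. The lowest p in the list was that of *Igfbp2*, an IGF-binding protein gene (log2 difference -0.27, limma adjusted p = 0.129). By edgeR on 5 libraries both *Cldn18* (log2 difference -0.61, adjusted p = 0.00439) and *Igfbp2* (-0.20, adjusted p = 0.0437) were lower, and *Cldn18* had a limma adjusted p of 0.369.

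Of 22 further airway secretory genes, 11 were near zero, and 14 were tested. *Scgb3a1*, a relative of *Scgb3a2*, had at most 1 read in a pool, and *Cyp2f2*, a club cell monooxygenase gene, was at 5.97 ± 3.94 in control and 5.97 ± 0.141 in mutant pools (SD, n = 3 each). Of the 14, 0 passed by limma. An unadjusted p under 0.05 was seen for 1 that was higher and 4 that were lower, against 6.67% of all genes higher and 6.89% lower, and by edgeR 3 were lower. *Cckar*, a cholecystokinin receptor gene, was the nearest to the threshold. It was at 655, 830 and 422 for controls 1 to 3 and at 318, 190 and 281 for mutants 1 to 3, without overlap (log2 difference -1.25, limma adjusted p = 0.0571, edgeR adjusted p = 0.000431). *Aldh1a7* and *Bpifb1*, named after their values were seen, had log2 differences of -0.77 and -1.12 (limma adjusted p = 0.305 and 0.249) and passed by edgeR on 5 libraries (adjusted p = 0.0004 and 0.0488), and control pool 3 was the lowest control pool for each of these 3 genes.

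Across the 6 pools, *Prdx1* (Pearson r = 0.995) and *Snrpb* (r = 0.992) were among the genes most like *Sftpc* on the log2 scale. These correlations are a description over 6 libraries that share their normalization, and 92 of the tested genes had an r of at least 0.95. *Prdx1*, which encodes a peroxiredoxin, was at 8147, 8245 and 7448 for controls 1 to 3 and at 7873 to 8008 in the mutant pools, so its range was much smaller than that of *Sftpc* in proportion to its level, with the lowest value again in control pool 3. Among the set itself, r with *Sftpc* was 0.919 for *Lamp3*, 0.769 for *Sftpb*, 0.283 for *Abca3*, 0.258 for *Napsa*, 0.017 for *Sftpa1* and -0.693 for *Hopx*. No likeness is given for the airway genes, which were near zero.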

How the data were processed

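RNA of whole lungs at E11.5 was sequenced. The deposited signal is a normalized count per gene and library, obtained by the authors with a size factor for each library. The submitters' processing notes name Trim Galore, HISAT2, featureCounts, DESeq2 and mm10 (GRCm38), without versions or settings. Deposited columns with log2 fold changes, a test score and p-values hold a comparison by the authors and were left aside. Every value above 0 was a whole multiple of 1 step per library (within 0.02 of a read), and reads were recovered for 5 libraries, with 20197642 to 21276090 reads each. Those of control pool 3, whose step lies close to 1, were not used as counts.

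Values were compared as log2(normalized count + 1) with limma 3.58.1 (lmFit, eBayes with trend) in R 4.3.3, without a replicate block, with two-sided p-values adjusted by Benjamini-Hochberg over the 17168 genes that reached 1 in 3 or more libraries. This scale shrinks the fold change of low genes. The alternatives are listed in the closing section, with edgeR 4.0.16 (quasi-likelihood test) on the recovered reads. Both tests were tried on simulated counts with planted changes larger than those of this set. Their power for the genes of the set was not tested. The labels give replicate numbers but not the litters, so p-values measure the spread between these pools. The genes and lists were chosen with earlier results of these data known. The genes named were the 10 of the set, the targeted gene, 17 regulators and markers fixed by name, for each list up to 3 genes past the threshold, by adjusted p, or else the gene of lowest p, and the 3 genes most like *Sftpc*, which had the highest level per kilobase. One of these last 3 is not reported here. Genes outside this rule are marked, apart from *Xist* and overlapping antisense genes. Exon lengths and coordinates are from GENCODE M21 (GRCm38), and 9 older symbols in the lists were matched through RefSeq (GRCm38.p6).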

Additional observations from a re-analysis of the deposited data

How the results depend on the processing

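None of the 7 tested genes of the set passed the threshold under any alternative other than scaling to the epithelial genes, and their lowest adjusted p without that scaling was 0.102 (*Sftpc*, edgeR). *Sftpb*, *Abca3* and *Napsa* kept their direction in each alternative, although the log2 difference of *Sftpb* fell from 0.22 to 0.0084 with the *Xist* covariate. With each library scaled to the 20 epithelial genes, which by construction raises the log2 difference of every gene by 0.49, 4 of the 7 passed (*Sftpc*, *Sftpb*, *Abca3* and *Napsa*), as did 70.5% of all genes (12096). Under this scaling the log2 difference turned positive for *Sftpa1* (0.33), *Lamp3* (0.28), *Hopx* (0.38), *Nkx2-1* (0.23), *Foxa2* (0.24), *Sox2* (0.0147), *Etv5* (0.29), *Lpcat1* (0.40), *Cldn18* (0.11), *Rptor* (0.42), *Igfbp2* (0.21), *Smpx* (0.11) and *D330041H03Rik* (0.25). Leaving out 1 pool at a time, it ranged from -0.31 to 0.24 for *Sftpc*, from -0.32 to 0.0271 for *Sftpa1*, from -0.91 to 0.17 for *Lamp3*, from -0.38 to 0.14 for *Hopx*, from -0.0473 to 0.066 for *Id2*, from -0.32 to 0.60 for *Cyp2f2*, from -0.38 to 0.69 for *Aqp5* and from -0.0084 to 0.0805 for *Pdpn*. With edgeR on 5 libraries *Sftpc* was at -0.31, *Hopx* at 0.13 and *Aqp5* at -0.45, and with log2 *Xist* as a covariate, chosen after seeing the data, *Sftpc* was at -0.46 and *Aqp5* at -0.94.

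Over all genes, 86 passed by limma. There were 8 without the variance trend, 545 with edgeR on 5 libraries, and between 1 (without control pool 1, and without mutant pool 3) and 468 (without control pool 3) with 1 pool left out. The genes set against the epithelial mean without overlap, 3 of 5, were 1 against *Epcam* alone and 3 to 4 with 1 pool left out. No share of all genes was counted for these alternatives. The near-zero count of 4 was 3 with a limit of 3 and 5 with a limit of 20. With the replicate number as a block, 71 genes passed, and it changed no call of the set. The deviations of same-numbered pools had correlations of -0.03, 0.17 and 0.06, and 3 of the 6 pools correlated best with their own number. The labels do not give the litters, so whether same-numbered pools are pairs is not known. The values of *Scgb3a2*, *Scgb1a1* and *Sftpd* are limited by depth, and those of *Lamp3* and *Napsa* by counting error. The other alternatives were upper-quartile normalization, a minimum of 10 in every library, no filter and a pseudocount of 0.1.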

Other observations

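Genes of the other cell types in these lungs were counted from lists written with earlier results known. Of 16 mesenchymal genes, 4 rose and 0 fell by limma, against 0.186% of all tested genes higher and 0.315% lower. The mean log2 value was higher in the mutant pools for 15 of the 16. *Col1a1* and *Col1a2*, the chains of type I collagen, rose by a log2 difference of 0.49 and 0.34 (limma adjusted p = 0.0125 and 0.0128), and *Fgf10*, the growth factor that draws out lung buds, by 0.64 (limma adjusted p = 0.0322). The summed count of this list was 114194 to 121717 in control and 137992 to 145087 in mutant pools, and 0 of its genes were called without mutant pool 3, without control pool 1, without the variance trend or with the *Xist* covariate. Of 15 endothelial genes, 0 passed by limma, 8 were higher and 0 lower at an unadjusted p under 0.05, and 2 were higher by edgeR. The shares of all genes were 6.67% higher and 6.89% lower at that limma p, and 3.68% called by edgeR. *Plvap*, a gene of fenestrated endothelium, had a log2 difference of 0.25 (limma adjusted p = 0.0546).

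Of 20 macrophage and dendritic cell genes, 0 passed by limma or edgeR. At an unadjusted limma p under 0.05, 2 were higher and 1 lower, against 6.67% of all genes higher and 6.89% lower. The mean log2 value was higher in the mutant pools for 18 of the 20. The macrophage factor *Spi1* (listed as *Sfpi1*) had the lowest p of this list (log2 difference 0.47, limma adjusted p = 0.151). Its summed count was lowest in control pool 3, at 2841, against up to 3969 in the other controls. Of 15 tested ciliated cell genes, 0 passed by limma or edgeR and 0 had an unadjusted p under 0.05, and *Tekt1* came closest (log2 difference 0.26, limma adjusted p = 0.397). Of 10 thyroid genes, 6 were near zero, 7 were tested, and 0 passed by limma or edgeR, with 0 at an unadjusted p under 0.05. *Iyd*, the thyroid gene with the lowest p, had a log2 difference of -1.01 (limma adjusted p = 0.475). The heart muscle gene nearest to the threshold was *Smpx* (log2 difference -0.37, limma adjusted p = 0.0922).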
